A study of Cyanidioschyzon merolae strain 10D with 6 samples.

Results

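Interior Harbinger copies are the 887 annotated copies of Harbinger transposons that lie on the nuclear chromosomes of the red alga Cyanidioschyzon merolae at 20000 bp or more from both chromosome ends. They were chosen from the deposited annotation of transposable elements (TEs) by superfamily name and position alone, with position 1 and the last annotated base as the ends. The annotation holds 5074 TE copies, of which 941 are Harbinger: besides the 887, 48 lay nearer to an end and 6 in organelle sequences. The 887 copies fell into 13 repeat families on all 20 chromosomes, measured 82 to 3564 bp with a median of 489 bp, and lay a median of 531 bp from the nearest gene.

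Harbinger elements are DNA transposons that move by cut and paste. A complete element encodes a DDE transposase and a Myb-like DNA-binding protein between terminal inverted repeats, and many genomes carry shorter derivatives that keep the ends and have lost the coding sequence. Polycomb Repressive Complex 2 (PRC2) methylates a lysine of histone H3 through its subunit E(z), a modification known for keeping genes silent and found on TEs in several unicellular organisms. The comparison of the PRC2 mutant with wild type shows which Harbinger copies gave more or less poly(A) RNA in cells without E(z).

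Poly(A) RNA came from Cme(z)-1, a C. merolae line that has lost PRC2 function, and from the wild type 10D, with 3 libraries per group. All 6 samples grew in liquid medium of pH 2.5 to 3.0 at 42 °C under 80 µmol per square metre and second of light, and the labels name no other allele or agent. The mutant is a single line and nothing states that replicates were grown apart. The p-values therefore reflect library-to-library spread that may be technical, and other traits of the line cannot be told apart from the loss of E(z). Library totals were 10754544, 8292567 and 10089859 counts in the mutant and 9188335, 8182485 and 7860491 counts in wild type. CMQ156C, the E(z) gene (chr17:379207-381546), had 0 counts in each mutant library, against 1776, 1533 and 1770 counts in the wild-type libraries, at least 671-fold lower when 3 counts per library are taken as the floor.

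As a whole the 887 copies were about as abundant in the mutant as in wild type. Their summed counts made up 1.19%, 1.34% and 1.23% of all counts in the mutant libraries, against 1.16%, 1.20% and 1.17% in the wild-type libraries, a mean of 1.25% ± 0.0806 in the mutant and 1.18% ± 0.0211 in wild type (SD, n = 3 each). The groups overlapped, and the difference of 0.0737 percentage points was smaller than the spread of the mutant libraries. Without mutant replicate 2 the difference was 0.0283 percentage points. Set against TE counts alone, the copies took 11.9% ± 0.226 in the mutant and 12.8% ± 0.28 in wild type, a lower share in every mutant library. The 50 most abundant copies held 43.5% to 46.1% of the Harbinger counts in mutant libraries and 45.1% to 48.1% in wild-type libraries.

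Single copies differed far more than the sum. Counts of all genes and TE copies were tested together with edgeR's quasi-likelihood test, and a change was called at a Benjamini-Hochberg adjusted p under 0.05. Of the 887 copies 483 had enough counts to be tested, and 30 of these rose in the mutant (6.21%) while 8 fell (1.66%). Over all 7641 genes and TE copies tested, 3.40% rose and 1.54% fell, and over the 2132 tested copies of all other interior TEs, 5.25% rose and 0.938% fell. The share of raised Harbinger copies was thus close to that of other interior TEs, and the difference between the sets was not tested. The median log2 fold change of mutant over wild type was 0.07 over the tested copies, against -0.01 over all rows tested. DESeq2 called 46 raised and 17 lowered copies, against 5.05% and 3.68% of all rows, and limma voom called 33 and 8, against 3.47% and 1.47% of all rows. In bulk RNA, fewer cells that express a copy and less RNA per cell cannot be told apart.

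The filter on low counts shapes this count. A copy was kept when about 1.14 CPM were reached in at least 3 libraries. CPM are counts per 1e+06 counts, over unscaled library totals in this filter and over scaled ones elsewhere. Of the 483 tested copies 388 passed the filter in all 6 libraries. In 12 tested copies no wild-type library reached it, so these passed through the mutant alone, and 9 of the 30 raised copies are among them. The 9 include TE_homo_3448, TE_homo_2837, TE_homo_4584, TE_homo_3003, TE_homo_418, TE_homo_2116, TE_homo_2548 and TE_homo_419, which are described below. These copies could be tested only because their mutant counts were high. In 2 tested copies no mutant library reached it. A further 404 copies were not tested, and 62 of the 887 had 0 counts in all 6 libraries.

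In all 30 raised copies every mutant library lay above every wild-type library, and in all 8 lowered copies every mutant library lay below. Such separation was found for 94 tested copies upward (19.5%) and for 45 downward (9.32%), against 12.1% and 11.1% of all rows tested. Of the raised copies 28 changed by more than 2-fold, and of the lowered copies 6 did. The raised copies stood at a median of 7.57 CPM in the mutant and 1.40 CPM in wild type, the lowered ones at 14.1 CPM in the mutant and 50.6 CPM in wild type, and all tested copies at 11.7 CPM in the mutant and 10.0 CPM in wild type. Together the raised copies amounted to 611.6 CPM in the mutant and 231.3 CPM in wild type, and the lowered ones to 183.8 CPM in the mutant and 415.6 CPM in wild type. Without mutant replicate 1 the test called 18 raised and 4 lowered copies, and without wild-type replicate 1 it called 17 and 3.

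**Figure D1:**
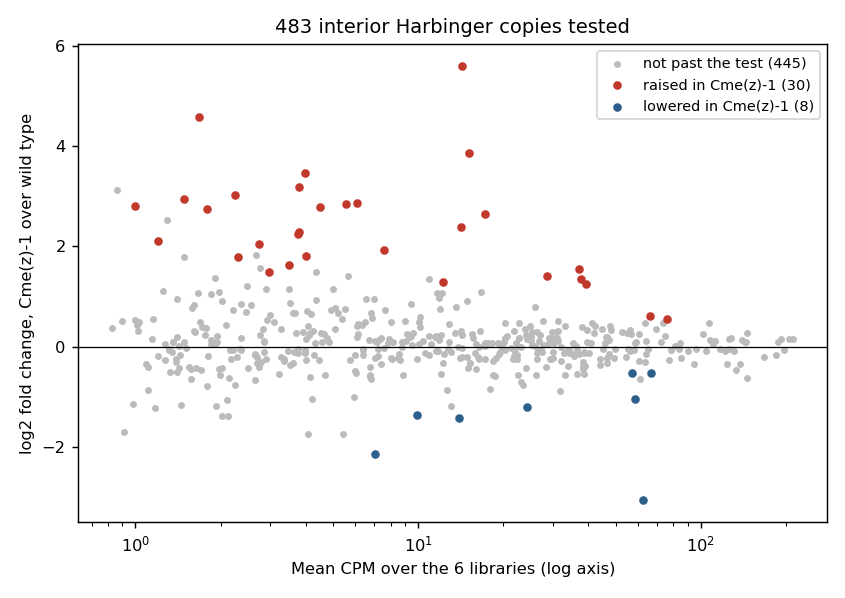
Each point is 1 of the 483 tested copies, by its mean CPM over the 6 libraries (x, log axis) and its log2 fold change, Cme(z)-1 over wild type (y). The 30 raised copies lie mainly at low to middle levels, and most of the 483 points lie close to 0.

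The largest rise was that of TE_homo_3448, a copy of 294 bp of rnd-1_family-16 on chromosome 17 (chr17:260180-260473, plus strand) between divergent genes, 1594 bp from CMQ110C. It had 343, 249 and 235 counts in the mutant libraries, against 8, 4 and 2 counts in the wild-type libraries, a log2 fold change of 5.60 ± 0.38 (SE; adjusted p = 4.6e-05, edgeR). All mutant libraries were far above all wild-type libraries. The copy abuts TE_homo_3447, a TcMar-ISRm11 copy, which had 4, 3 and 1 counts in the mutant and 1, 0 and 3 counts in wild type; the high counts were thus not shared by that neighbour. CMQ110C averaged 217 CPM in the mutant and 296 CPM in wild type and did not pass the test.

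TE_homo_2837 (chr14:771902-773833, minus strand), of rnd-1_family-8, had 38, 31 and 26 counts in the mutant and 2, 1 and 0 counts in wild type. With only 3 wild-type counts in all, the ratio of summed, depth-scaled counts was 26.3 (95% exact binomial interval 8.73 to 130, counting error only; adjusted p = 0.0033, edgeR). Of its 1932 bp, 1672 bp are also annotated as the Gypsy copy TE_homo_2838 on the same strand, which stood at 134 CPM in the mutant and 9.0 CPM in wild type. Reads in the shared stretch cannot be told apart between the Harbinger and the Gypsy annotation.

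A pair of raised copies on chromosome 20 lie over the gene CMX009C (chr20:601502-602545). TE_homo_4585 (chr20:602047-602841, minus strand), of rnd-1_family-21, had 334, 224 and 288 counts in the mutant and 18, 9 and 21 counts in wild type (log2 fold change 3.86 ± 0.29 SE, adjusted p = 0.0001, edgeR). TE_homo_4584 (chr20:601431-602034), of rnd-3_family-86, had 67, 39 and 102 counts in the mutant and 2, 9 and 7 counts in wild type (3.19 ± 0.52 SE, adjusted p = 0.0082). Of its 604 bp, 194 bp are shared with the Gypsy copy TE_homo_4583, which was not called. That Gypsy copy had 235, 0 and 255 counts in the mutant and 87, 33 and 71 counts in wild type. CMX009C itself had 272, 247 and 292 counts in the mutant and 58, 53 and 38 counts in wild type (2.19 ± 0.21 SE, adjusted p = 0.00048). In CMX009C and both raised copies the groups stood well apart. The libraries were unstranded, so reads of the gene, of a transcript from the other strand and of the copies cannot be told apart here.

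Another neighbouring pair rose on chromosome 4, some 42 kb from the left end, between divergent genes and upstream of CMD014C. TE_homo_418 (chr4:41681-42376), of rnd-1_family-18, had 36, 47 and 33 counts in the mutant and 6, 3 and 3 counts in wild type (log2 fold change 3.02 ± 0.46 SE, adjusted p = 0.0054, edgeR). TE_homo_419 (chr4:42380-42773), of rnd-3_family-86, had 34, 28 and 30 counts in the mutant and 1, 5 and 5 counts in wild type (2.75 ± 0.51 SE, adjusted p = 0.016). The groups did not overlap in either copy. The call of TE_homo_419 was lost without mutant replicate 1 (adjusted p = 0.0695) and without mutant replicate 2 (adjusted p = 0.0549). CMD014C stood at 161 CPM in the mutant and 140 CPM in wild type and was not called.

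A further 3 copies of the short families showed large folds on few wild-type counts. TE_homo_3003 (chr15:541917-542219), of rnd-1_family-10, had 69, 77 and 66 counts in the mutant and 8, 8 and 0 counts in wild type, with an adjusted p of 0.015 in edgeR that became 0.0515 without mutant replicate 2 and 0.0605 without wild-type replicate 1. TE_homo_2116 (chr12:80339-80630), of rnd-1_family-10, had 26, 26 and 25 counts in the mutant and 0, 3 and 5 counts in wild type (adjusted p = 0.041). Leaving out any library but wild-type replicate 3 ended that call, with an adjusted p of 0.119 without mutant replicate 1, 0.111 without mutant replicate 2, 0.0767 without mutant replicate 3, and 0.0675 and 0.0949 when wild-type replicate 1 or 2 was left out. TE_homo_2548 (chr13:644268-644561), of rnd-1_family-16, had 19, 12 and 22 counts in the mutant and 3, 2 and 1 counts in wild type (adjusted p = 0.015), and its call held only when mutant replicate 2 was the library left out. The adjusted p was 0.0695 without mutant replicate 1, 0.0567 without mutant replicate 3, and 0.0567, 0.0552 and 0.0588 when wild-type replicate 1, 2 or 3 was left out. In these copies the direction was the same in every library, and the counts limit how firmly the size can be stated.

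**Figure D2:**
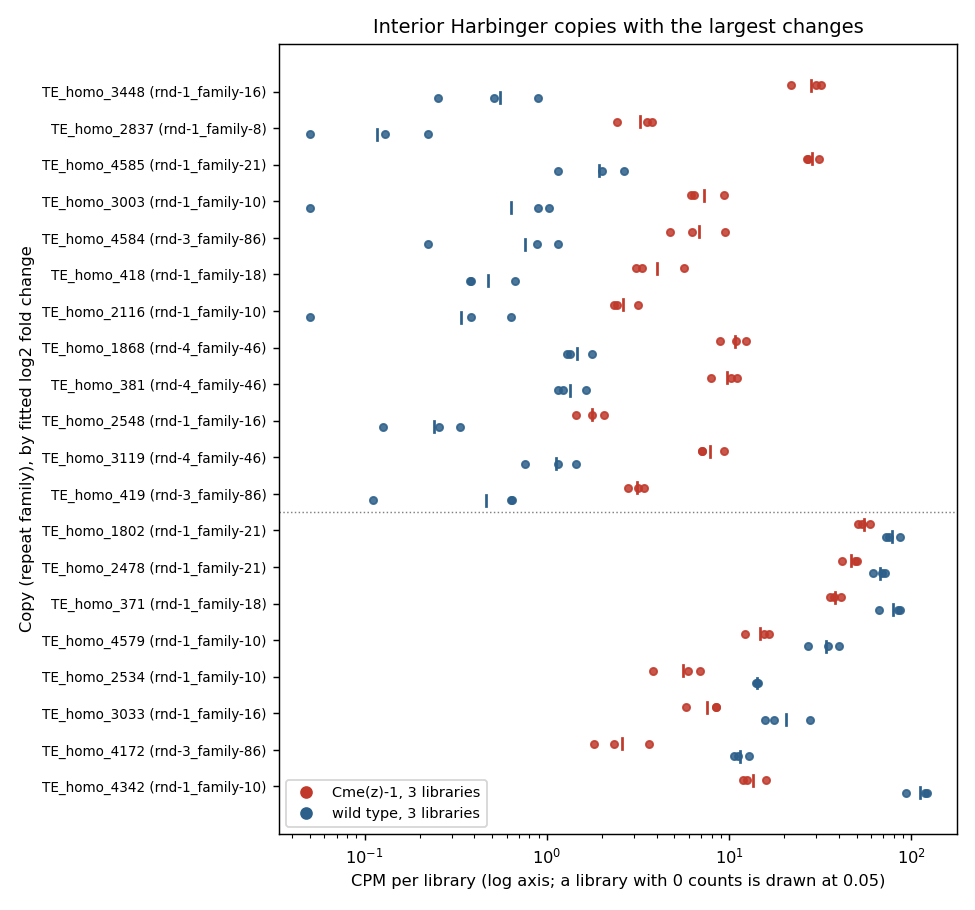
CPM of each library (x, log axis; 0 counts drawn at 0.05) for the 12 copies with the largest rises and the 8 copies that fell, with Cme(z)-1 in red above wild type in blue and a bar at the mean of each group. In all 20 copies the 3 mutant points and the 3 wild-type points occupy separate ranges.

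The largest fall was that of TE_homo_4342, a 570 bp copy of rnd-1_family-10 on chromosome 19 (chr19:1014664-1015233, minus strand). It had 128, 131 and 135 counts in the mutant, against 1074, 944 and 741 counts in wild type, a log2 fold change of -3.06 ± 0.16 (SE; adjusted p = 1.4e-05, edgeR). The copy abuts the Gypsy copy TE_homo_4341 on the same strand, which fell to 30.4 CPM in the mutant, against 217 CPM in wild type (-2.83, adjusted p = 1.9e-06). The nearest gene, CMS403C at 1173 bp, stood at 185 CPM in the mutant and 176 CPM in wild type. Both TE copies were thus lowered, and that gene was not called.

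TE_homo_4172 (chr19:362330-363235), of rnd-3_family-86, had 25, 15 and 39 counts in the mutant and 96, 87 and 101 counts in wild type (log2 fold change -2.14 ± 0.31 SE, adjusted p = 0.0044, edgeR). Its neighbour TE_homo_4171 (chr19:361390-362150), of rnd-1_family-18 and 1 of the 5 most abundant interior Harbinger copies, had 2340, 1748 and 2312 counts in the mutant and 1705, 1581 and 1490 counts in wild type, and did not pass the test (0.15 ± 0.09 SE, adjusted p = 0.43). Of the 761 bp of TE_homo_4171, 607 bp also lie in other TE annotation, where reads cannot be told apart. Thus of 2 copies 180 bp apart 1 was called; the difference between them was not tested. TE_homo_371 (chr3:365727-366722), of rnd-1_family-18, had 384, 312 and 443 counts in the mutant and 755, 515 and 684 counts in wild type (-1.04 ± 0.14 SE, adjusted p = 0.0026), and the groups did not overlap.

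The other 5 falls were less stable. TE_homo_4579 (chr20:591281-591570), of rnd-1_family-10, had 12.3, 16.5 and 15.6 CPM in the mutant libraries and 34.7, 27.1 and 39.9 CPM in the wild-type libraries (log2 fold change -1.20 ± 0.20 SE, adjusted p = 0.0098, edgeR; 0.0542 without wild-type replicate 1). The nearest gene, CMT236C at 268 bp, was lowered as well, at 59.2 CPM in the mutant and 124 CPM in wild type (-1.06, adjusted p = 0.0065). TE_homo_3033, of rnd-1_family-16, had 91, 48 and 91 counts in the mutant and 158, 123 and 220 counts in wild type (-1.42, adjusted p = 0.022). Its adjusted p was 0.0682 without mutant replicate 1, 0.0652 without mutant replicate 2, 0.0608 and 0.0575 when wild-type replicate 1 or 3 was left out. TE_homo_2534, of rnd-1_family-10, had 41, 49 and 74 counts in the mutant and 129, 111 and 111 counts in wild type (-1.36, adjusted p = 0.020), with an adjusted p of 0.0638 without mutant replicate 1, 0.0859 and 0.0512 when wild-type replicate 1 or 2 was left out. Small falls were called in TE_homo_2478 (-0.52) and TE_homo_1802 (-0.51), both of rnd-1_family-21. Each lost its call when any of the 6 libraries was left out, with adjusted p-values of 0.0562 to 0.202 for TE_homo_2478 and 0.0569 to 0.13 for TE_homo_1802.

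Repeat families hold copies of one consensus, and summing the interior copies of a family keeps reads shared among them in 1 row. The interior Harbinger copies were summed apart from the other copies of their family, so reads shared with those can fall in another row. None of the 9 interior Harbinger families with enough counts was called, raised or lowered, by edgeR on genes and summed families, and DESeq2 and limma voom called 0 as well. In the same table of 5023 rows 1.33% rose and 1.25% fell, and 5.70% of the 158 rows of summed TE families rose. At an unadjusted p under 0.05 edgeR gave 1 Harbinger family, rnd-4_family-46. Its 67 copies summed to 602, 751 and 579 CPM in the mutant libraries and 451, 568 and 482 CPM in the wild-type libraries (log2 fold change 0.36 ± 0.14 SE, adjusted p = 0.27). The groups did not overlap, by a small margin.

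The 3 largest families did not pass the test. The 235 copies of rnd-1_family-16 summed to 1559 ± 152 CPM in the mutant and 1451 ± 67.1 CPM in wild type, the 222 copies of rnd-1_family-21 to 5252 ± 465 CPM in the mutant and 5103 ± 143 CPM in wild type, and the 210 copies of rnd-1_family-10 to 1927 ± 155 CPM in the mutant and 1987 ± 141 CPM in wild type (SD, n = 3 each). The 77 copies of rnd-3_family-86 summed to 1597 ± 125 CPM in the mutant and 1517 ± 60.6 CPM in wild type, and the 48 copies of rnd-1_family-18 to 1088 ± 23.1 CPM in the mutant and 1070 ± 16.1 CPM in wild type. In each of these 5 families the difference of the means was smaller than the SD of the mutant libraries. Family rnd-1_family-8, with 16 copies, summed to 211, 453 and 210 CPM in the mutant libraries and 324, 384 and 267 CPM in the wild-type libraries. Its high mutant library came from 1 copy, TE_homo_3035, which had 535, 2009 and 762 counts in the mutant and 1393, 1526 and 870 counts in wild type. The 5 copies of rnd-1_family-309 rested on the single copy with counts, TE_homo_3828, with 26, 32 and 52 counts in the mutant and 38, 27 and 30 counts in wild type.

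By single copies, 7 of the 13 families held raised copies and 5 held lowered ones. Family rnd-4_family-46 had 6 raised and 0 lowered of 34 tested copies (17.6% raised, median log2 fold change 0.17). Family rnd-1_family-10 had 7 raised and 3 lowered of 119, rnd-1_family-16 had 4 and 1 of 85, rnd-1_family-21 had 5 and 2 of 159, rnd-3_family-86 had 4 and 1 of 44, rnd-1_family-18 had 2 and 1 of 32, and rnd-1_family-8 had 2 and 0 of 8. Without mutant replicate 1 the raised copies were 4 in rnd-1_family-10, 2 in rnd-1_family-16 and 2 in rnd-1_family-21, and without wild-type replicate 1 they were 2 in each of these 3 families. In rnd-1_family-21 the count was also 3 without mutant replicate 2, 3 without mutant replicate 3 and 2 without wild-type replicate 3. Family medians lay between -0.06 in rnd-1_family-18 and 0.17 in rnd-4_family-46 among these 7 families.

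**Figure D3:**
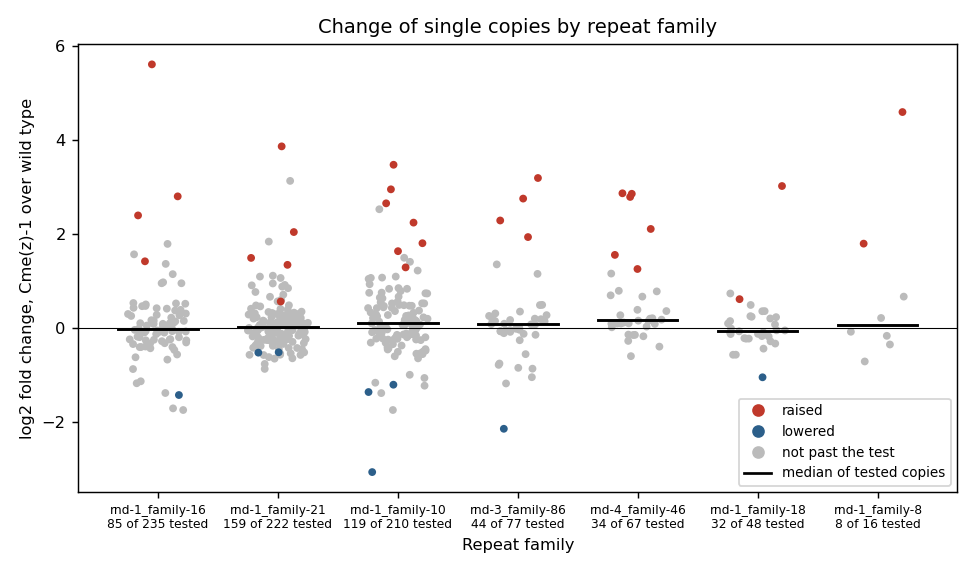
Log2 fold change, Cme(z)-1 over wild type (y), of each tested copy in the 7 families with at least 8 tested copies (x), with the family median as a bar. The medians lie near 0 in every family, and most raised copies (red) lie well above the median of their own family. Uncalled copies also lie far out, among them TE_homo_1697 of rnd-1_family-10 at 2.52.

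By length, raised copies were most frequent among the longest. Of the 60 tested copies of 1000 bp or more, 9 rose (15%) and 0 fell, with a median log2 fold change of 0.15. By position, 8 of 36 long copies upstream of the nearest gene rose, 1 of 4 over a gene and 0 of 20 downstream. Of the 240 copies from 500 to under 1000 bp, 12 rose and 5 fell; of the 170 copies from 200 to under 500 bp, 9 rose and 3 fell; and of the 13 copies under 200 bp, 0 were called, with 1 higher and 1 lower at an unadjusted p under 0.05 in edgeR and 1 raised in DESeq2. Among all other interior TEs, 7.68% of 1002 copies of 1000 bp or more rose. Without mutant replicate 1 the raised copies were 6 in the 500 bp class and 5 in the 200 bp class, and without wild-type replicate 1 they were 5 and 5. Without mutant replicate 2, 2 long copies were called as lowered. Long copies collect more reads at the same level per length, and the part of this in the calls was not tested. Per length the long copies were low, with a median of 1.92 CPM per kb in the mutant and 1.01 CPM per kb in wild type, against 6.65 CPM per kb in the mutant and 5.39 CPM per kb in wild type from 500 to under 1000 bp.

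Of the 9 raised long copies 6 belong to rnd-4_family-46, whose copies had a median length of 2537 bp, 2 to rnd-1_family-8 and 1 to rnd-3_family-86. TE_homo_1868 (chr11:138557-141165), 114 bp upstream of CMK047C, had 118, 102 and 95 counts in the mutant and 12, 10 and 14 counts in wild type (log2 fold change 2.86 ± 0.30 SE, adjusted p = 0.00073, edgeR). TE_homo_381 (chr3:399883-402947), 8 bp from CMC165C, had 119, 85 and 85 counts in the mutant and 11, 9 and 13 counts in wild type (2.85 ± 0.31 SE, adjusted p = 0.00091). TE_homo_3119 (chr16:125131-127735) had 76, 59 and 100 counts in the mutant and 13, 9 and 6 counts in wild type (2.79 ± 0.34 SE, adjusted p = 0.0018). The groups were far apart in all 3 copies. None of the 3 nearest genes was called by edgeR: CMK047C stood at 107 CPM in the mutant and 108 CPM in wild type, CMC165C at 73.5 CPM in the mutant and 73.8 CPM in wild type, and CMP047C, next to TE_homo_3119, at 191.9 CPM in the mutant and 162.0 CPM in wild type (log2 fold change 0.24). TE_homo_1868 shares 1559 of its 2609 bp with the Gypsy copy TE_homo_1869, which had 6, 1 and 2 counts in the mutant and 5, 2 and 4 counts in wild type and was not tested. TE_homo_3119 shares 1646 of its 2605 bp with the Gypsy copy TE_homo_3118, which also rose, to 30.6 CPM in the mutant, against 10.7 CPM in wild type (adjusted p = 0.012; 0.0573 without wild-type replicate 1).

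The longest interior Harbinger copy, TE_homo_2567 of rnd-3_family-86 (3564 bp, chr13:693636-697199), had 110, 108 and 138 counts in the mutant and 32, 19 and 27 counts in wild type (log2 fold change 1.93 ± 0.27 SE, adjusted p = 0.0037, edgeR). The next longest were both of rnd-4_family-46 and did not pass the test. TE_homo_977 (3518 bp, over CMG039C) had 19, 17 and 22 counts in the mutant and 16, 9 and 12 counts in wild type, and TE_homo_1201 (3491 bp) had 144, 91 and 168 counts in the mutant and 112, 82 and 114 counts in wild type. All 3 are long copies, and 1 of them was called.

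Raised copies were found at every distance from the nearest gene. Of copies over a gene 3 rose and 0 fell of 15 tested; at 1 to 250 bp it was 6 and 0 of 106; above 250 and up to 500 bp, 4 and 3 of 125; above 500 and up to 1000 bp, 8 and 2 of 120; and beyond 1000 bp, 9 and 3 of 117. In this order the shares raised were 20%, 5.66%, 3.2%, 6.67% and 7.69%. The 20% counts TE_homo_4584 and TE_homo_4585 apart, though both lie over the same gene, CMX009C. Among all other interior TEs they were 7.95%, 5.41%, 5.13%, 5.86% and 3.26%, and the differences were not tested. The medians of the log2 fold change of the Harbinger copies were 0.09, 0.10, 0.06, 0.02 and 0.09 in that order. Without wild-type replicate 1 the raised copies were 2 up to 500 bp, 4 up to 1000 bp and 5 beyond 1000 bp, and in the class up to 1000 bp they were 3 without mutant replicate 1 and 4 without mutant replicate 2.

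Raised copies were more frequent upstream of genes than downstream of them. Upstream of the nearest gene, on the side of its start codon, 22 of 233 tested copies rose (9.44%) and 6 fell. Downstream, 5 of 235 rose (2.13%) and 2 fell, and over a gene 3 of 15 rose (20%) and 0 fell. Of the 3 raised copies over a gene, TE_homo_4584 and TE_homo_4585 lie over the same gene, CMX009C, and are not independent. Upstream and downstream copies split likewise among all other interior TEs, with 89 of 1138 upstream (7.82%) and 11 of 843 downstream (1.30%) raised. Of their copies over a gene 12 of 151 rose (7.95%). Neither split was tested. Among the raised upstream copies TE_homo_3448, TE_homo_2837, TE_homo_3003, TE_homo_418, TE_homo_2116, TE_homo_2548 and TE_homo_419 passed the low-count filter through the mutant alone. Over a gene TE_homo_4584 did so. The Harbinger shares upstream and over a gene thus rest partly on copies that could be tested only because their mutant counts were high. Without mutant replicate 1, 14 upstream and 2 downstream copies rose; without wild-type replicate 1, 14 and 1 did; and without wild-type replicate 3, 3 downstream copies did. By the arrangement of the flanking genes, 16 of 142 copies between divergent genes rose, 9 of 205 between genes in tandem, and 2 of 121 between convergent genes (11.3%, 4.39% and 1.65%). Among all other interior TEs the shares raised were 9.41%, 4.01% and 0.87% in the same order.

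Levels moved with the side too. Over all upstream copies the median was 2.02 CPM per kb in the mutant and 1.38 CPM per kb in wild type, and over all downstream copies 9.45 CPM per kb in the mutant and 9.36 CPM per kb in wild type. Of the 4463 annotated 3' untranslated regions of the gene models 4461 are at most 4 bp long, so reads of a gene's 3' end beyond its model can count towards a TE copy that lies there. Among tested copies with a mean under 10 CPM over all libraries, 15 of 136 upstream copies rose and 2 of 85 downstream copies did. At 10 CPM or more, 7 of 97 upstream copies rose and 3 of 150 downstream copies did. These classes hold few raised copies, the difference between the sides was not tested at either level, and the part of untranslated regions in it was not tested.

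**Figure D4:**
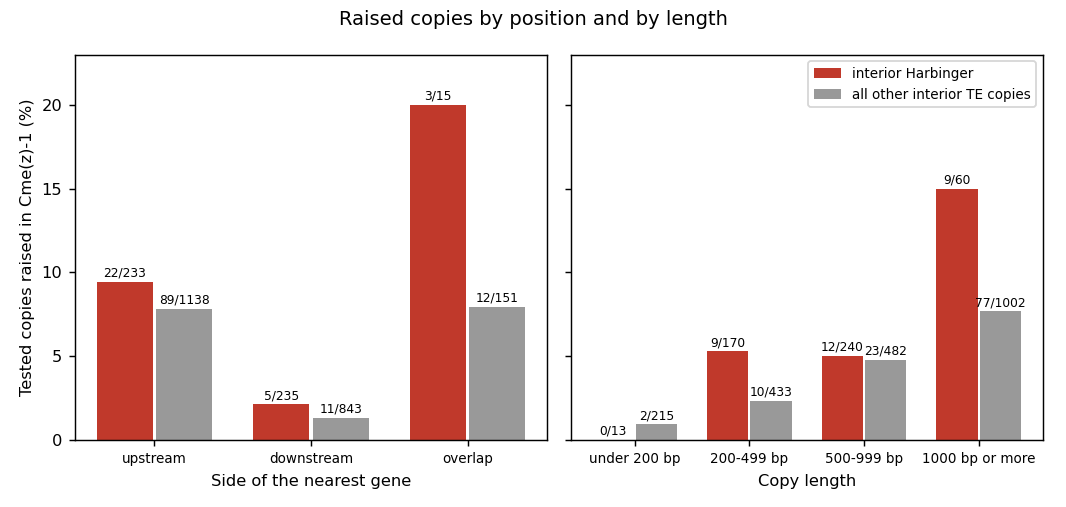
Percent of tested copies raised in Cme(z)-1 (y), by side of the nearest gene (left) and by copy length (right), for interior Harbinger copies (red) and all other interior TE copies (grey), with raised over tested copies above each bar. Upstream and long copies were raised more often than downstream and short ones in both sets.

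Few genes next to interior Harbinger copies changed. The copies have 665 nearest or overlapped genes, of which 650 were tested, with 8 raised and 9 lowered. Over all 4677 tested nuclear genes 1.30% rose and 1.86% fell, and the shares among the nearest genes were 1.23% and 1.38%. Without mutant replicate 1 the counts were 5 and 5, and without wild-type replicate 1 they were 3 and 4. Of the 26 tested genes nearest to a raised copy 1 rose, CMX009C, and of the 8 nearest to a lowered copy 1 fell, CMT236C. CMQ156C, the E(z) gene with 0 counts in each mutant library, is itself among the 9 lowered genes. It is the nearest gene of a member, TE_homo_3494, which lies 1658 bp downstream and had 5, 2 and 4 counts in the mutant and 3, 2 and 4 counts in wild type. Of 33 tested genes that a copy overlaps, 2 rose: CMX009C and CMK071C (chr11:213682-214234), which stood at 384 CPM in the mutant and 223 CPM in wild type (log2 fold change 0.78, adjusted p = 0.015, edgeR).

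Many interior Harbinger copies are parts of larger annotated units. Of the 887, 590 (66.5%) touched or overlapped another TE copy, among them 231 of the 235 copies of rnd-1_family-16. That family met rnd-1_family-10 in 138 pairs, in every case on the opposite annotated strand, with a median joint length of 595 bp; 70 of these pairs lay end to end without overlap and 68 overlapped. Each copy of such a unit is counted on its own. In the 44 pairs with both copies tested, the log2 fold changes of the rnd-1_family-10 copy and the rnd-1_family-16 copy had a Pearson r of 0.825 and a Spearman rho of 0.671. In the 30 of them without overlap, r was 0.909 and rho 0.875. These values are across loci in the same 6 libraries, whose depth the copies share, and reads that span the junction may count towards either copy.

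The pair of TE_homo_4036 and TE_homo_4037 on chromosome 18 (chr18:1117228-1117830), 440 bp upstream of CMR454C, was the only one of the 44 in which both copies were called, and it was chosen for description after its values were seen. TE_homo_4036 had 255, 252 and 187 counts in the mutant and 34, 53 and 24 counts in wild type (log2 fold change 2.39 ± 0.35 SE, adjusted p = 0.0044, edgeR). TE_homo_4037 had 374, 242 and 272 counts in the mutant and 33, 51 and 32 counts in wild type (2.65 ± 0.27 SE, adjusted p = 0.00066). All mutant libraries of both copies lay far above wild type, and CMR454C stood at 141 CPM in the mutant and 116 CPM in wild type without passing the test. In 8 further pairs 1 copy was called. For example, TE_homo_3002, the partner of TE_homo_3003, had 44, 52 and 22 counts in the mutant and 12, 9 and 13 counts in wild type (1.57, adjusted p = 0.10; 0.0381 without mutant replicate 3).

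Over all 452 pairs that include an interior Harbinger copy, both members were tested in 133. Both rose in 4 pairs and both fell in 1, 15 had 1 called member, and 0 were called in opposite directions.

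**Figure D5:**
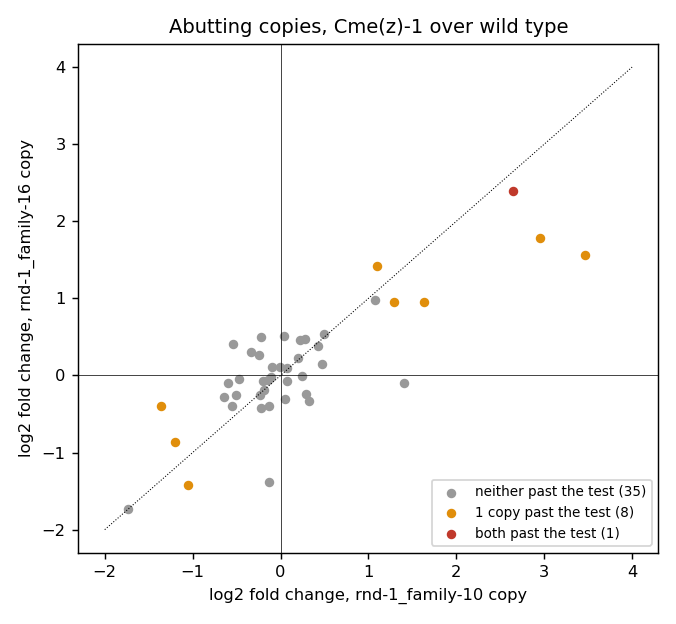
Log2 fold change, Cme(z)-1 over wild type, of the rnd-1_family-10 copy (x) and of the rnd-1_family-16 copy it abuts (y), for the 44 pairs with both copies tested; the dotted line marks equal values. Orange points have 1 called copy and the red point has both. Most pairs lie near the line and near 0. Uncalled pairs also lie far out, among them TE_homo_3903 and TE_homo_3904, both at -1.74 and the lowest of the 44 on the x axis.

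Copies without any count in wild type gave little RNA in the mutant. At 0 counts in all 3 libraries of a group were 86 copies in the mutant (9.70%) and 104 in wild type (11.7%). Of the 104 silent in wild type 42 had a count in the mutant and 7 had counts in all 3 mutant libraries; none of them reached the filter, so none was tested. Of the 86 silent in the mutant 24 had a count in wild type, 2 of them in all 3 libraries. Among the 3813 copies of all other interior TEs, 402 were at 0 in the mutant (10.5%) and 461 in wild type (12.1%). With libraries thinned to 7860491 counts, 94 Harbinger copies were at 0 in the mutant and 108 in wild type.

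TE_homo_2180 (chr12:301220-301485), of rnd-1_family-16, was highest among those silent in wild type, with 3, 3 and 9 counts in the mutant and 0 in each wild-type library, at least 1.35-fold higher with 3 counts per library as the floor. The next were TE_homo_1269, TE_homo_2210, TE_homo_226 and TE_homo_1136, with 8 or 9 mutant counts in all. In the other direction TE_homo_4537 (chr20:424654-424959), of rnd-1_family-10, had 0 counts in each mutant library and 3, 4 and 2 counts in wild type, at least 1.19-fold lower. TE_homo_199, TE_homo_1041, TE_homo_4597 and TE_homo_1078 had 4 to 7 wild-type counts and none in the mutant. Allowing up to 3 counts in the group, 170 copies (19.2%) met this in the mutant, and 1 of them had 10 or more counts in wild type, while 194 (21.9%) met it in wild type, and 20 of them had 10 or more counts in the mutant. After thinning to equal depth 21.4% of the 887 copies met it in the mutant, 2 of them with 10 or more counts in wild type, and 22.4% met it in wild type, 17 of them with 10 or more counts in the mutant. Among the 3813 copies of all other interior TEs, as deposited, 727 met it in the mutant (19.1%) and 890 in wild type (23.3%). Of these, 10 and 79 copies had 10 or more counts in the other group. Such a copy was picked by its low value in one group, so the 2 directions are to be read against each other.

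The most abundant interior Harbinger copies did not pass the test. By CPM these were TE_homo_1692, TE_homo_4171, TE_homo_1679, TE_homo_1506 and TE_homo_3668, with log2 fold changes of -0.07 to 0.15. The first, TE_homo_1692 (chr10:337530-338939) of rnd-3_family-86, had 2451, 1878 and 2320 counts in the mutant and 1807, 1603 and 1559 counts in wild type, or 224 CPM in the mutant and 201 CPM in wild type. Per length the highest were TE_homo_2208, TE_homo_3668, TE_homo_4255, TE_homo_2979 and TE_homo_4869. Of the 310 bp of TE_homo_4255, 274 bp also lie in other TE annotation. TE_homo_2208 (chr12:386331-386623), of rnd-1_family-16, had 1452, 1253 and 1199 counts in the mutant and 953, 878 and 1100 counts in wild type, or 453 CPM per kb in the mutant and 407 CPM per kb in wild type. TE_homo_2979 was lower, at 112 ± 2.63 CPM in the mutant and 154 ± 32.6 CPM in wild type (SD, n = 3 each), and was called only without wild-type replicate 3 (adjusted p = 0.0187, edgeR; 0.15 with all libraries).

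Harbinger copies nearer to the chromosome ends are outside the counts above. Of the 48 Harbinger copies within 20000 bp of an end 25 were tested, with 13 raised and 0 lowered and a median log2 fold change of 0.79. Just inside the limit, 8 copies lay from 20000 to under 25000 bp, of which 4 were tested and 0 called, with a median of 0.46. Just outside it, 6 copies lay from 15000 to under 20000 bp, of which 5 were tested and 2 raised, with a median of 0.15.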

How the data were processed

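Poly(A) RNA was counted in 3 Cme(z)-1 and 3 wild-type libraries, grouped by sample title. The authors deposited raw read counts, 1 value per gene and per single TE copy, as whole numbers. Tools named, per the submitters' processing notes, are Trim Galore and STAR; which program counted the reads and what it did with multi-mapping ones is not given in the sources used here, which bears on every repeated copy. Coordinates are 1-based on build ASM9120v1, per the file headers. Counts of 4984 genes and 5074 TE copies were tested together with edgeR 4.0.16 (R 4.3.3; filterByExpr with minimum count 10 and minimum total 15, TMM scaling, glmQLFTest, Benjamini-Hochberg over 7641 rows, adjusted p under 0.05). CPM use TMM-scaled totals. Depth was 7860491 to 10754544 counts per library, and intervals and floors cover counting error only. DESeq2 1.42.0 and limma 3.58.1 (voom) served as alternatives. The edgeR code was tested on simulated data. No library repeated another (chi-square per degree of freedom 17.0 to 35.2 within groups). Distances run from facing base to facing base.

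Members and lists were chosen with earlier results of these data known; the side of the gene, the level split and the abutting pairs were described after values were seen. The rule for names took the 12 largest rises and 12 largest falls (8 existed), the 5 highest copies by CPM and by CPM per kb, up to 5 silent copies each way, the 3 longest, families of at least 5 copies, and called neighbouring genes. The annotations used hold no product text, so lists of chromatin and transposase genes could not be built, and sequences were not used here.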

Additional observations from a re-analysis of the deposited data

How the results depend on the processing

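The counts of 30 raised and 8 lowered copies moved little with scaling: 30 and 8 with median-ratio scaling, 34 and 6 with total counts alone, 30 and 6 with nuclear genes. Without a low-count filter they were 30 and 10, with a strict one 34 and 8, and with limma voom 33 and 8. DESeq2 called more, 46 raised and 17 lowered, including all 30 and all 8, and for the nearest genes 18 raised and 24 lowered, against 8 and 9 with edgeR; the cause was not tested. Leaving out each library gave 17 to 29 raised and 3 to 10 lowered copies. Some of these fits added calls: without wild-type replicate 2, 23 of the 29 raised copies were among the 30. Without mutant replicate 2, 5 of the 10 lowered copies were among the 8. Per fit, 17 to 23 of the 30 and 3 to 6 of the 8 were called again. Only 16 of the 30 and 3 of the 8 kept their call in every fit. Among nearest genes the fits gave 3 to 7 raised and 4 to 11 lowered.

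Leaving out copies within 500 bp of a gene left 17 raised and 5 lowered of 237 tested, by fewer copies. Leaving out copies over another TE copy, an alternative chosen after seeing the data, left 20 and 8. With the limit at 10000 bp from the ends 36 and 8 were called, and at 40000 bp 30 and 8. Family sums gave 0 calls in every alternative. The share of counts, 0.0737 percentage points higher in the mutant, was -0.891 with TE counts as the denominator, where the TE total also changed, and 0.0283 to 0.105 with each library left out. With at most 3 counts as silent, 170 copies were silent in the mutant and 194 in wild type.

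Whether the replicate numbers pair the samples could not be settled. Same-numbered libraries correlated at 0.022, 0.136 and 0.259 in their deviations, and differently numbered ones at -0.265 to 0.142. Mutant replicates 2 and 3 correlated best with the wild-type library of their own number, and mutant replicate 1 with wild-type replicate 2 (0.142). With the replicate block the test called 24 raised and 7 lowered copies, 22 and 7 of them among those called without it, and 6 raised and 8 lowered nearest genes. Low counts limit what could be called: 404 of 887 copies were not tested.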

Other observations

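Besides the units with rnd-1_family-10, copies of rnd-1_family-16 abutted copies of rnd-1_family-3, a TcMar-ISRm11 family, in 62 pairs, all on the same annotated strand and with a median joint length of 1411 bp. Both copies were tested in 12 of these pairs and 0 of these pairs held a call. In 24 further pairs 1 copy was tested, and 3 of these copies were raised: TE_homo_3448 and TE_homo_2548 of rnd-1_family-16, and TE_homo_1867 of rnd-1_family-3 (log2 fold change 3.46, adjusted p = 0.0012, edgeR). Copies of rnd-1_family-21 and rnd-3_family-86 formed 21 pairs, all on opposite strands, of which 13 had both copies tested and 0 held a call.

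By chromosome, the 30 raised copies lay on 17 of 20 chromosomes and the 8 lowered copies on 6. Chromosome 20, with 94 interior Harbinger copies, held 4 raised copies of 46 tested (8.70%) and 1 lowered copy (2.17%). Among the 4 are TE_homo_4584 and TE_homo_4585, which both lie over CMX009C. Over all tested interior Harbinger copies 6.21% rose and 1.66% fell. Chromosomes 1, 7 and 9 held no called copy among 8, 11 and 18 tested. Differences between chromosomes were not tested.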
